A study of Mus musculus with 3 samples.

Results

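The genes described here are 10 components of the unfolded protein response and the integrated stress response, chosen by gene symbol: Herpud1, Atf4, Xbp1, Ppp1r15a, Atf6, Ddit3, Ern1, Atf5, Asns and Trib3. All 10 were found, out of 24411 genes in the tables. Their RNA was measured by sequencing in 3 libraries of 1 group, labelled as brain of C57BL/6J mice, as cKO and as treated with a Pu.1 inhibitor; the series design describes purified primary microglia of adult mice (n = 4). The cKO mice were homozygous for the loxP allele of Mir137 and carried Tmem119-CreERT2, a recombinase that tamoxifen activates and that the microglial gene Tmem119 drives. Per the series design the mice were 7 to 8 weeks old when tamoxifen was injected daily for 7 days; the samples themselves are labelled with an age of 6 to 8 weeks. Pu.1, encoded by Spi1, is a transcription factor on which microglial identity depends. The sources used here do not give the identity, dose or duration of the inhibitor, or whether animals were pooled. No other condition was analysed here. Each value below is therefore a bulk level in libraries labelled with both the deletion and the inhibitor, and neither effect could be measured. Loss of Mir137 was not examined here, and the libraries also held RNA of cells other than microglia.

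The unfolded protein response is set off when unfolded proteins gather in the endoplasmic reticulum (ER). It runs through the membrane sensors IRE1 (encoded by Ern1), PERK (Eif2ak3) and ATF6, which raise chaperones and the machinery that removes misfolded proteins. The integrated stress response joins PERK with other kinases that phosphorylate the initiation factor eIF2alpha, which lowers general translation while the mRNAs of a few proteins, ATF4 among them, are translated more. Much of this control acts on splicing, cleavage or translation, so a gene's RNA level does not report how active its protein is.

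The libraries held 15710750 to 17180404 estimated counts, and the 10 genes took 0.132 ± 0.0021% of them (mean ± SD, n = 3). The labels do not state whether each replicate was a separate animal, so the spread between the samples, and any p-value built on it, may be technical. All 6 markers of microglia were detected, with a summed level of 11305 to 11775 FPKM (fragments scaled to gene length and library size). Genes of other cells were also present, as given at the end, and in bulk RNA fewer cells of a type and less RNA per cell cannot be told apart. All 30 member counts were whole numbers, so none showed reads divided between similar genes.

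The 10 genes fell into 4 abundant, 2 intermediate and 4 low genes. Herpud1, Atf4, Xbp1 and Ppp1r15a averaged at least 100 FPKM, a level reached by 3.12% of all genes in the table, and together held 80.4 ± 0.33% of the counts of the 10 (SD, n = 3). Atf6 and Ddit3 lay between 20 and 30 FPKM. Ern1, Atf5, Asns and Trib3 lay under 10 FPKM. Of the 10 genes 9 were detected, meaning that every library reached 1 FPKM, where 47.8% of all genes were detected. The median over the 10 genes of log2(FPKM + 1) was 4.74 ± 0.07 (SD, n = 3), and over all genes of the table it was 0.95 ± 0.02. Over genes with a count in all 3 libraries that median was 3.23 ± 0.0031.

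**Figure D1:**
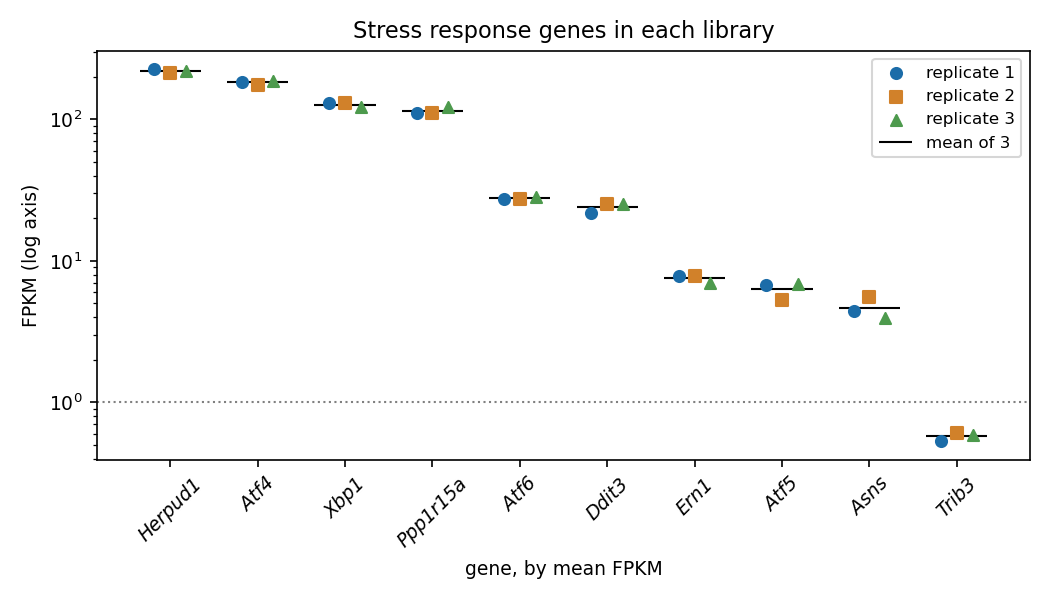
FPKM of the 10 genes on a log axis, with a point for each of the 3 libraries, a bar at the mean and a dotted line at the detection level of 1 FPKM. The genes step down from Herpud1 at 219 FPKM to Trib3 at 0.58 FPKM, and the libraries lie close together within each gene.

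Among the sensors of the ER, Atf6 and Ern1 stood at different levels. Atf6, whose protein is cut free of the membrane to act as a transcription factor (GRCm38 chromosome 1, 170704674 to 170867771, minus strand), had 27.3, 27.3 and 28.2 FPKM in replicates 1, 2 and 3. Its mean was 27.6 ± 0.54 FPKM (SD, n = 3), the smallest relative spread of the 10 genes, with a coefficient of variation of 1.96%. Ern1, which encodes the kinase and RNase IRE1 (chromosome 11, 106394650 to 106487852, minus strand), had 7.78, 7.79 and 6.96 FPKM and a mean of 7.51 ± 0.48 FPKM. No library brought Ern1 near the Atf6 level. The third sensor, PERK (Eif2ak3, named after its values were seen), had 22.6, 22.7 and 21.9 FPKM, a mean of 22.4 ± 0.43 FPKM, which placed it nearer to Atf6.

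Xbp1 is the substrate of IRE1. The RNase removes 26 bases from the coding part of the Xbp1 mRNA, and only the shortened mRNA encodes the potent transcription factor. The stretch is shown because the deposited values sum reads over the whole gene and do not separate the forms. It lies within a single exon at chr11:5524279-5524304 (GRCm38, plus strand), bases 479 to 504 of the coding sequence of GENCODE M21 transcript Xbp1-201, and is printed in capitals between 15 flanking bases on either side.
Xbp1 IRE1 site: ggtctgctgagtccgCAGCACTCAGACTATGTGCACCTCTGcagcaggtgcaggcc
Xbp1 (chromosome 11, 5520659 to 5525893, plus strand) had 130.0, 130.1 and 122 FPKM in replicates 1, 2 and 3, a mean of 127 ± 4.65 FPKM (SD, n = 3). Replicates 1 and 2 were nearly equal and replicate 3 was the lowest. Per length, Xbp1 exceeded the RNA of its processing enzyme Ern1 by 17.0 ± 0.47 times within the same library (SD, n = 3).

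Herpud1, the most abundant of the 10, encodes an ER membrane protein that helps to pass misfolded proteins to degradation. It lies on chromosome 8, 94386438 to 94395377, on the plus strand. It had 226, 213 and 219 FPKM in replicates 1, 2 and 3, with a mean of 219 ± 6.60 FPKM (SD, n = 3), and ranked 345 among the 24411 genes. Replicate 1 was the highest and replicate 2 the lowest.

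Atf4 and Atf5 encode related transcription factors of the integrated stress response, and both mRNAs are translated more when eIF2alpha is phosphorylated. Atf4 (chromosome 15, 80255184 to 80257541, plus strand) had 184, 176 and 188 FPKM in replicates 1, 2 and 3, a mean of 183 ± 6.10 FPKM (SD, n = 3). Atf5, which is also known for its part in the mitochondrial stress response (chromosome 7, 44812256 to 44816658, minus strand), had 6.77, 5.31 and 6.89 FPKM, a mean of 6.32 ± 0.88 FPKM. Replicate 2 was the lowest library for both genes.

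Ppp1r15a and Ddit3 act further down the pathway. Ppp1r15a encodes GADD34, the stress-induced subunit that directs a phosphatase to eIF2alpha and so restores translation (chromosome 7, 45522916 to 45526268, minus strand). It had 111, 111 and 122 FPKM in replicates 1, 2 and 3, a mean of 114 ± 6.19 FPKM (SD, n = 3), with replicate 3 above the other libraries. Ddit3 encodes CHOP, a transcription factor linked to cell death under lasting ER stress (chromosome 10, 127290774 to 127296288, plus strand). It had 21.7, 25.4 and 25.1 FPKM, a mean of 24.1 ± 2.02 FPKM, with replicate 1 the lowest.

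Asns and Trib3, which are known targets of ATF4, were the lowest of the 10. Asns encodes asparagine synthetase (chromosome 6, 7675169 to 7693254, minus strand) and had 4.45, 5.57 and 3.94 FPKM in replicates 1, 2 and 3, a mean of 4.65 ± 0.83 FPKM (SD, n = 3). Trib3 encodes a pseudokinase that CHOP and ATF4 induce (chromosome 2, 152337422 to 152344032, minus strand). It had 0.53, 0.61 and 0.59 FPKM, a mean of 0.58 ± 0.042 FPKM, from 16, 17 and 17 counts. All 3 libraries lay under the detection level, and the exact Poisson 95% intervals of the counts, which cover counting error only, correspond to 0.30 to 0.86, 0.36 to 0.98 and 0.34 to 0.94 FPKM. Trib3 was therefore counted in every library, at a level 382 ± 39.8 times below that of Herpud1 (ratio of FPKM within a library, SD, n = 3).

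Promoter sequence was compared between the abundant and the low genes. RefSeq promoter windows of GRCm38.p6, 250 bases before to 50 after a start site, were given for 9 of the 10 genes; the gene not matched was Atf6. Of 5 motifs searched on both strands, ERSE-II (ATTGG and CCACG 1 base apart, bound by ATF6) occurred in Herpud1, at 52 bases before the start, and in 0.0365% of all promoter windows. The motif of C/EBP and ATF factors (TGATGNAA), through which ATF4 acts, occurred in Herpud1, Asns and Trib3 and in 3.97% of all windows. Its match lay 112 bases before the start in Herpud1, 23 before it in Asns and 15 after it in Trib3, and it read on the opposite strand in Herpud1 and Trib3. The cyclic AMP response element (TGACGTCA, a palindrome) occurred 12 bases before the start in Ppp1r15a and in 1.79% of all windows. ERSE (CCAAT and CCACG 9 bases apart) and UPRE (TGACGTGG), in 0.119% and 0.676% of all windows, had no match in these letters in the 9 genes. Directly before its start Herpud1 held CCAAT and CCAC 9 bases apart, which falls short of ERSE in the last letter only. The 150 bases before the start are shown for an abundant gene and a low gene that share the C/EBP-ATF motif, and for Ppp1r15a, with matches in capitals. They lie at chr8:94386279-94386428 (plus strand), chr6:7693210-7693359 (minus strand) and chr7:45526269-45526418 (minus strand), and the matches do not overlap each other.
Herpud1 promoter: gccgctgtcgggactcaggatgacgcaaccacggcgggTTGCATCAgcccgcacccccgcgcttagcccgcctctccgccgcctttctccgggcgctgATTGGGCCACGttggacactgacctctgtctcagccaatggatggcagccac
Asns promoter: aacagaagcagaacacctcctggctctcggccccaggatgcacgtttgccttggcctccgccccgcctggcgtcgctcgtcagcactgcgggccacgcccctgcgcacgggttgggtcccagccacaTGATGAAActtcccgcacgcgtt
Ppp1r15a promoter: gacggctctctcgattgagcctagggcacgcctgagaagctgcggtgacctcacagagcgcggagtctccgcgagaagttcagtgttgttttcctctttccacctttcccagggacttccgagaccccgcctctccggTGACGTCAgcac
The shared motif thus stood before the most abundant gene of the 10 and before a gene with 4.65 FPKM, and a match is a description of sequence, not a measured site.

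Upstream start codons, which take part in the translational control of Atf4, Atf5, Ddit3 and Ppp1r15a, were counted in the 5′ leader of the transcript numbered 201 of each gene. There were 3 ATG triplets in the leader of Atf4, 3 in Ppp1r15a, and 2 each in Atf5, Ddit3 and Asns. Xbp1 had 1, and Atf6, Ern1, Trib3 and Herpud1 had 0. At least 2 were present in 5 of the 10 genes and in 27.2% of 10437 detected genes with such a transcript. Genes with at least 2 ranged in level from Asns to Atf4, so the count did not sort the 10 genes by RNA level.

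The order of levels was examined over the 9 pairs of neighbours by mean FPKM. The pairs were formed from these same values, so the first gene of each had the higher mean by construction. The direction of a difference is therefore no independent evidence for the order. In 8 of 9 pairs the ranges of the 3 libraries did not overlap. The exception was Atf5 and Asns, where Atf5 was higher in 2 of 3 libraries and the difference in log2(FPKM + 1) was 0.38 ± 0.39 (SD, n = 3; exact two-sided sign-flip permutation test, p = 0.5). Ern1 exceeded Atf5 in 3 of 3 libraries, but by 0.22 ± 0.24, no more than its spread. Xbp1 exceeded Ppp1r15a by 0.15 ± 0.13 and Atf6 exceeded Ddit3 by 0.19 ± 0.11, each in 3 of 3 libraries. The difference between Xbp1 and Ppp1r15a was small in replicate 3, with 122 FPKM for both after rounding. The largest steps were Ppp1r15a over Atf6, 2.01 ± 0.05, then Asns over Trib3, 1.83 ± 0.20, and Ddit3 over Ern1, 1.56 ± 0.17. The remaining steps were Atf4 over Xbp1, 0.52 ± 0.09, and Herpud1 over Atf4, 0.26 ± 0.04. Each of the 8 pairs gave p = 0.25 in the same exact test, the smallest that 3 libraries allow, and 0.281 after Benjamini-Hochberg adjustment over the 9 pairs, so none could pass 0.05.

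Part of this order belongs to the unit. FPKM divides by the effective length of a gene, and that length was 7182 bases for Atf6, 3696 for Ern1 and 588 for Ddit3. In CPM (counts scaled to library size, not divided by length) Atf6 stood at 198 ± 3.88, close to the 231 ± 9.20 of Atf4, while Ddit3 at 14.1 ± 1.21 lay below Ern1 at 27.8 ± 1.74 (SD, n = 3). On TMM-normalised CPM, which leaves length out, Ddit3 minus Ern1 turned to -0.93 and Atf4 minus Xbp1 to -0.10 log2 units. The step of Ppp1r15a over Atf6 shrank to 0.24 log2 units, and those of Atf6 over Ddit3 and Ern1 over Atf5 grew to 3.72 and 1.43. The ranges of the 3 libraries were apart in 6 of the 9 pairs on TMM-normalised CPM, against 8 in FPKM. Herpud1 stayed the highest of the 10 and Asns and Trib3 the lowest in both units.

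**Figure D2:**
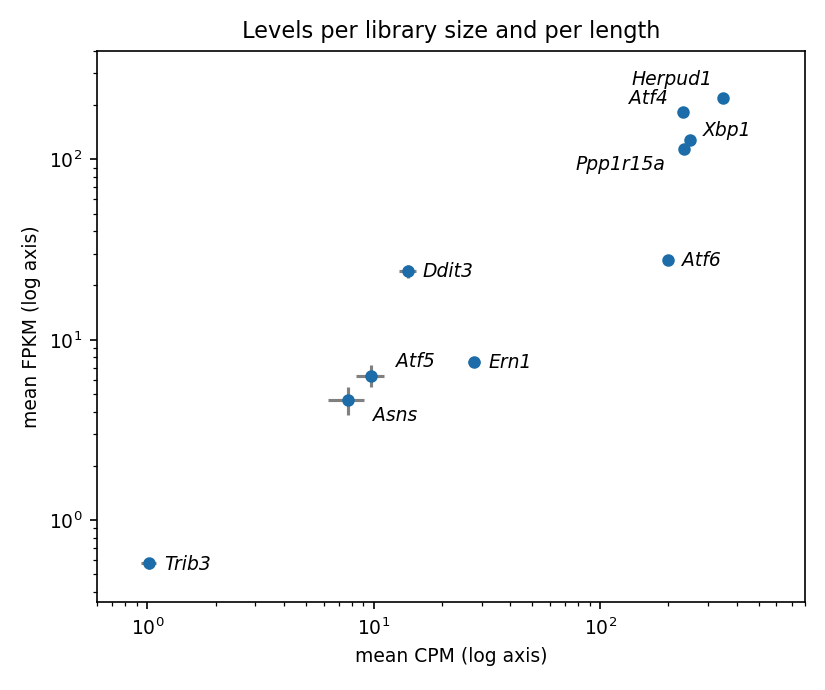
Mean FPKM (per length) against mean CPM (not per length) of the 10 genes, on log axes, with bars of 1 SD over 3 libraries. Atf6 and Ern1, with long transcripts, lie to the right of the other genes of like FPKM, and Ddit3, the shortest at 588 bases of effective length, lies to the left.

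Several of the 10 genes have a close relative, and which gene of the pair was higher differed by pair. Herpud1 exceeded Herpud2 by 5.01 ± 0.09 times, 219 ± 6.60 against 43.8 ± 1.92 FPKM. Ppp1r15a exceeded the constitutive subunit gene Ppp1r15b by 2.87 ± 0.17 times, 114 ± 6.19 against 40.0 ± 2.38 FPKM (SD, n = 3, as for all ratios of this kind). Without division by length both leads were smaller: in TMM-normalised CPM the log2 difference was 0.15 ± 0.08 for Ppp1r15a over Ppp1r15b, against 1.49 ± 0.08 in FPKM, and 1.68 ± 0.03 for Herpud1 over Herpud2, against 2.30 ± 0.03 in FPKM. Atf4 exceeded Atf5 by 29.2 ± 3.41 times. In these 3 pairs the FPKM ranges were apart and the gene named before its relative was higher in 3 of 3 libraries.

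Atf6 and its relative Atf6b were not separated. Atf6 had 27.6 ± 0.54 and Atf6b 31.4 ± 3.23 FPKM (SD, n = 3), with overlapping ranges and Atf6 higher in 1 of 3 libraries (difference in log2(FPKM + 1) of -0.18 ± 0.17, exact sign-flip permutation p = 0.5). Without division by length the difference turned to 1.46 log2 units in favour of Atf6. Ern1 was counted in every library, whereas Ern2, which encodes an IRE1 of mucosal epithelia, had 0 counts in each. A count of 0 allows up to 3 counts, or 0.175, 0.191 and 0.183 CPM in replicates 1, 2 and 3. Trib3 was the lowest of its family: its FPKM was 0.0197 ± 0.0023 of that of Trib1, at 29.3 ± 1.42 FPKM, and 0.128 ± 0.021 of that of Trib2, at 4.59 ± 0.78 FPKM. Of the 7 pairs, the 6 other than Atf6 and Atf6b gave p = 0.25 in the exact test, the smallest possible, and 0.292 after Benjamini-Hochberg adjustment.

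**Figure D3:**
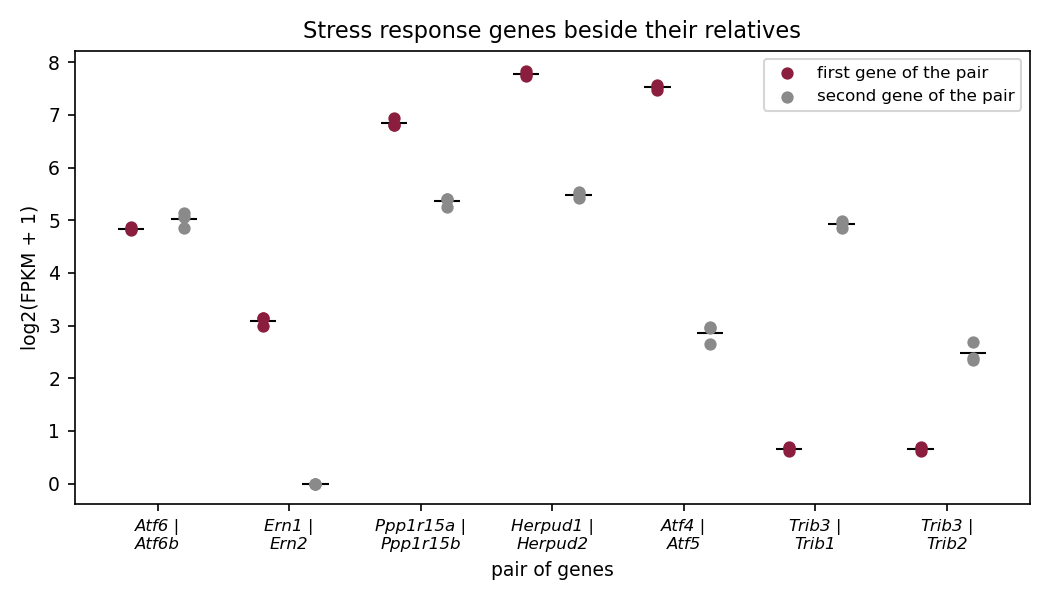
log2(FPKM + 1) in the 3 libraries for 7 pairs of related genes, each pair with its first gene at the left, and a bar at the mean. Herpud1, Ppp1r15a, Ern1 and Atf4 lie above their relatives, Trib3 lies below Trib1 and Trib2, and Atf6 and Atf6b overlap.

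The spread between libraries was small for the abundant genes. The edgeR tagwise biological coefficient of variation, the spread beyond counting error after moderation across genes, ran from 0.0497 for Herpud1 to 0.222 for Trib3, and its median over the 10 genes was 0.0667, against 0.0866 over all 13246 genes kept. The measure falls with abundance across all genes, and the 10 genes followed that fall. A chi-square test of homogeneity, which asks whether the 3 counts of a gene differ by more than counting error and compares libraries only, called 5 of the 10 genes with Benjamini-Hochberg adjustment over all 13246 genes, where 41.4% of all genes were called. The count is thus close to that of genes at large. The called genes were Ppp1r15a (adjusted p = 0.000178), Xbp1 (0.0109), Atf4 (0.0146), Herpud1 (0.0171) and Asns (0.0453). With no filter on low counts the call of Asns was lost (adjusted p = 0.0502), which left 4 of the 10, with 6415 genes called in all. That setting tested every gene with a count, more than 13246, and its share of genes called is not given to set beside 41.4%. In CPM the highest library exceeded the lowest by 1.10 times for Ppp1r15a and by 1.41 times for Asns. The called genes thus differed widely in the size of the difference and in depth, from 106 counts for Asns in replicate 3 to 6170 for Herpud1 in replicate 1.

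These calls changed when a library was left out, as did the calls over all genes. Without replicate 2 the calls were Xbp1 and Ppp1r15a, and without replicate 3 the call was Herpud1 alone, while without replicate 1 there were 4. Over all genes 5485 were called, 3780 without replicate 1, 2498 without replicate 2 and 3155 without replicate 3. The numbers of genes tested with a replicate left out are not given, so no share over all genes stands beside those calls. Atf5, with 178, 128 and 173 counts, had an adjusted p of 0.104.

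**Figure D4:**
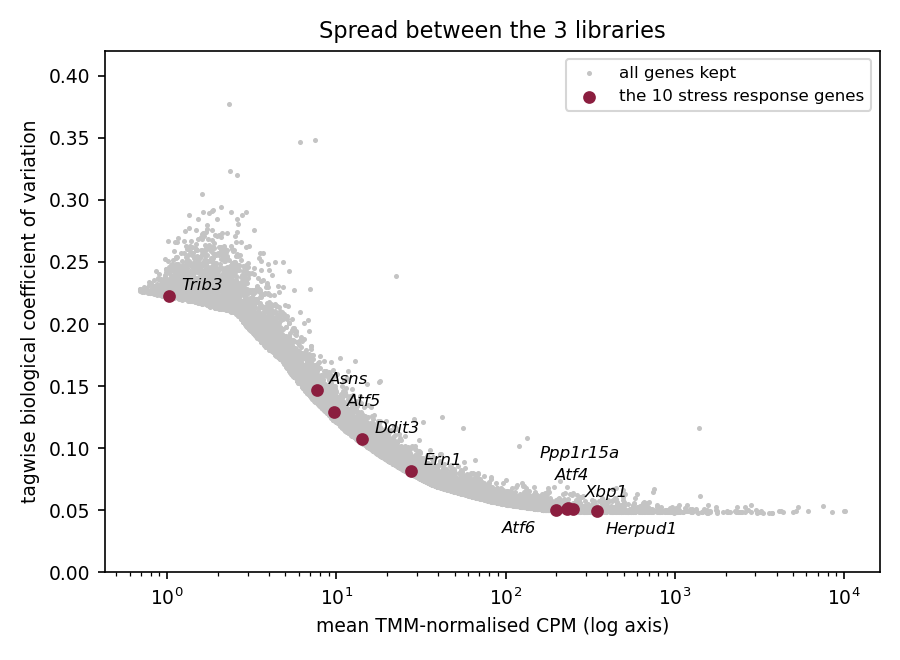
Tagwise biological coefficient of variation from edgeR against mean TMM-normalised CPM (log axis) for 13246 genes, with the 10 genes in dark red. The 10 genes lie within the band of genes of like abundance, from Trib3 at 0.222 to Herpud1 at 0.0497.

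Some genes overlap a neighbour, and since the sources used here do not state whether strand was kept, reads there could belong to either. In GENCODE M21, exons of Ddit3 share 68 bases with Mars and those of Atf5 share 82 bases with Nup62 and with Il4i1, all on the opposite strand. Mars had 1291 to 1599 counts, against 219 to 242 for Ddit3, and Nup62 had 454 to 540 and Il4i1 31 to 43, against 128 to 178 for Atf5. Mars and Nup62 thus had more counts, and Il4i1 fewer, than the gene each overlaps, and their part in the values was not tested.

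Around the 10 genes, the rest of the pathway was mostly detected, 101 of 111 further genes in 8 lists. Chaperones and folding enzymes of the ER were the most abundant list: 16 of 16 were detected, with a median of log2(FPKM + 1) of 6.71 ± 0.08 (SD over libraries, n = 3). The chaperone BiP (Hspa5) had 703 ± 13.6 FPKM and stood at 3.21 ± 0.14 times Herpud1, Hsp90b1 had 451 ± 5.42, calreticulin (Calr) 402 ± 17.9 and the lowest, Ero1lb, 7.62 ± 0.62 FPKM. Of the genes of ER-associated degradation, in which HERPUD1 takes part, 16 of 17 were detected, at a median of 5.21 ± 0.14. The segregase Vcp had 128 ± 1.23, Edem2 116 ± 2.04 and Derl3 0.87 ± 0.14 FPKM.

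Lists of sensor activation and its control, eIF2alpha kinases with phosphatase 1, and the mitochondrial response had medians near that of the 10 genes. All 9 genes of the sensor list were detected (median 4.86 ± 0.14). The highest was Rtcb, the ligase that rejoins the cut Xbp1 mRNA, at 111 ± 10.1 FPKM. Dnajc3 had 48.9 ± 1.57, Bloc1s1, whose mRNA IRE1 also cuts, 45.6 ± 4.79 and Wfs1 5.34 ± 0.48 FPKM. All 15 genes of the eIF2alpha kinases, eIF2, eIF2B and phosphatase 1 were detected (median 4.71 ± 0.15). The phosphatase subunits Ppp1ca, Ppp1cc and Ppp1cb had 176 ± 14.6, 108 ± 6.76 and 63.7 ± 4.48 FPKM, and the amino acid sensing kinase Eif2ak4 was lowest at 10.1 ± 1.14 FPKM. The counts of Ppp1ca were not whole, so its value is uncertain. All 8 genes of the mitochondrial response were detected (median 4.77 ± 0.01), with Hspe1 at 71.8 ± 4.54, Hspa9 at 61.8 ± 1.24, Hspd1 at 49.6 ± 0.32 and Clpp at 13.8 ± 1.38 FPKM.

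The lists downstream of PERK and ATF4 held both abundant and barely counted genes. Of 18 amino acid and redox genes 16 were detected (median 4.66 ± 0.05), with the transporter subunits Slc3a2 at 197 ± 13.2 and Slc7a5 at 77.9 ± 1.48, the tRNA synthetase Nars at 93.9 ± 6.51 and Pycr1 at 0.20 ± 0.067 FPKM. Of 14 stress signalling genes 11 were detected (median 3.86 ± 0.22). Txnip had 932 ± 19.3, Atf3 625 ± 22.6 and Ddit4 232 ± 17.1 FPKM, while Fgf21 had 0 counts. The counts of Txnip were not whole, so its value is uncertain. Atf3, a transcription factor that ATF4 induces and that many other stimuli raise, stood at 3.42 ± 0.03 times Atf4. Besides Fgf21, the genes under the detection level in this list were Stc2 and Chac1, at 0.17 ± 0.16 and 0.063 ± 0.023 FPKM, and Cth at 0.81 ± 0.24 FPKM joined Pycr1 in the list before it (Stc2, Chac1 and Cth were named after their values were seen). Low Trib3 and Asns thus stood beside other ATF4-linked genes at both ends of the scale.

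Of 15 relatives of the 10 genes 11 were detected (median 4.75 ± 0.08), led by Atf3, Creb3 at 52.4 ± 4.08 and Herpud2. Creb3l3 had 0 counts, as did Ern2, and the others under the detection level were Creb3l1 at 1.28 ± 0.44 FPKM, with 0.80 in replicate 2, and Creb3l4 at 0.26 ± 0.25 FPKM (both named after their values were seen).

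**Figure D5:**
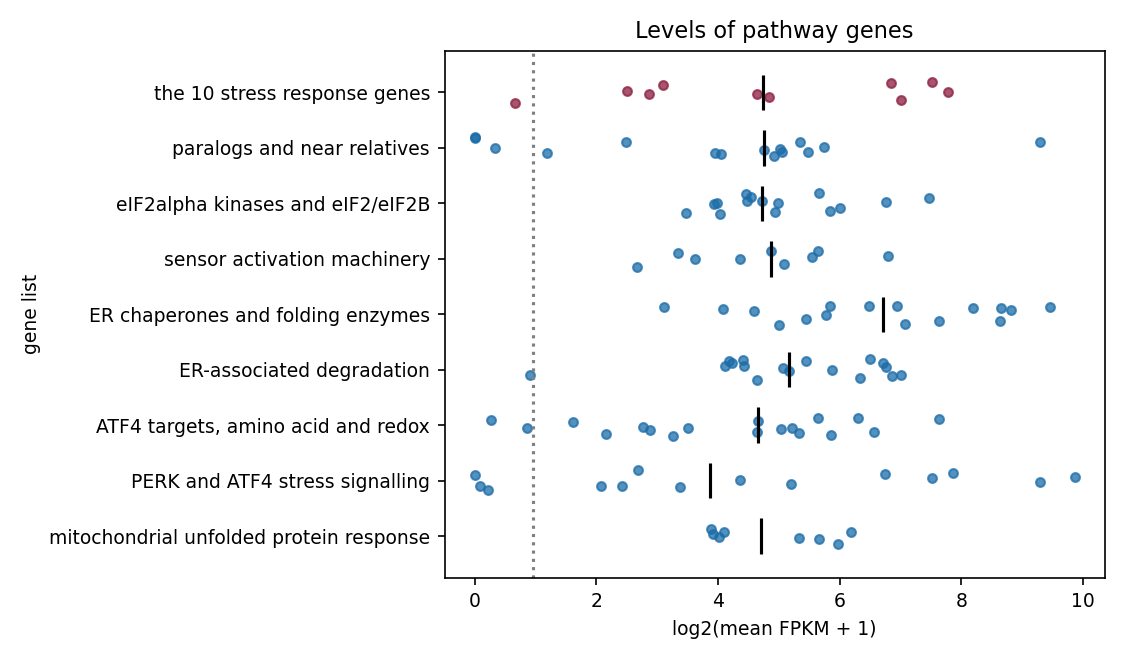
log2(mean FPKM + 1) of each gene in the list of 10 (dark red) and in 8 lists of the surrounding pathway (blue), with a black bar at the median of each list and a dotted line at the median of all genes in the table. ER chaperones lie highest, with a median of 6.71, and the PERK and ATF4 stress signalling genes spread most widely, down to 0.

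Markers of other cells were read because the 10 genes are expressed by many cell types and Xbp1 is high in plasma cells and other secretory cells. Of 7 plasma cell and B cell markers 2 were detected, with a summed level of 19.5 to 24.6 FPKM, of which the B cell gene Cd79b made up 16.4 ± 2.96. The other detected gene was Jchain, which joins immunoglobulins in plasma cells, with 4.03, 3.46 and 3.62 FPKM. Of further plasma cell genes, Mzb1 had 0.47, 0.92 and 0.39 FPKM and Sdc1 had 1.17, 0.85 and 0.40 FPKM. The neutrophil markers (7 of 7 detected) summed to 13290 to 14687 FPKM, the choroid plexus and ependymal markers (6 of 6) to 6244 to 7128, the endothelial markers (6 of 6) to 1911 to 2053 and the monocyte markers (4 of 4) to 570 to 652 FPKM. Astrocyte markers (5 of 5) summed to 140 to 152 and neuronal markers (2 of 6, with Nefl at 0) to 16.4 to 18.3 FPKM. The neutrophil sum was highest in replicate 2, as were the microglial, endothelial, monocyte, astrocyte and plasma cell and B cell sums. The choroid plexus sum was highest in replicate 3 and the neuronal sum in replicate 1. Few genes carried the neutrophil sum, S100a8 and S100a9 (means of 8800 and 4056 FPKM), and the choroid plexus sum, Ttr (5690). Not every marker followed its sum: Ngp was highest in replicate 3, Elane in replicate 1 and Folr1 in replicate 2. The part of these cells in the levels of the 10 genes was not tested.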

How the data were processed

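The 3 libraries formed 1 group, mapped from the sample titles. The deposited values are estimated counts and FPKM, in separate gene tables with a column for every replicate. The tools named in the submitters' processing notes are RSEM, STAR (2.7.9a) and DESeq2, and the builds are GRCm38 and mm10. The sources used here give no settings, annotation or strand. Estimated counts, as deposited, were not scaled between libraries, and 4.07% of values were not whole. The deposited FPKM divides counts by library size and effective gene length, so levels of different genes were compared in FPKM; effective length was recovered from counts and FPKM. In 12 rows the symbol had been turned into a date, and these were not used by name. There were 0 columns of other samples.

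A gene counted as detected where each library reached 1 FPKM. Differences between genes were taken within a library on log2(FPKM + 1), with a pseudocount of 1, with a two-sided exact test that flips signs over libraries (a permutation test). Estimated counts were rounded for edgeR 4.0.16 (R 4.3.3, default filter, TMM, intercept alone). They were also rounded for the chi-square test of homogeneity over 13246 genes, with Benjamini-Hochberg adjustment at 0.05. A trial of that test on simulated counts gave unchanged genes counting error only, so it does not cover spread beyond that. DESeq2 1.42.0 gave alternative size factors. Intervals and the limit of 3 counts for a count of 0 cover counting error only.

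The 10 genes and the gene lists were chosen with earlier results of these data known. Named always were the 10 genes and the second genes of 7 pairs; added were the 3 highest and the 1 lowest gene by mean FPKM of each pathway list, of which 1 is not reported here. The design gave no pattern over conditions, so no gene was named for likeness of pattern. Coordinates are from GENCODE M21 (GRCm38), promoters from RefSeq (GRCm38.p6), both 1-based. Ddit3 has a second GENCODE entry within the gene, which was not used. The ratios of Herpud1 to Trib3, Xbp1 to Ern1, Hspa5 to Herpud1 and Atf3 to Atf4, and the motifs, were chosen after the values were seen.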

Additional observations from a re-analysis of the deposited data

How the results depend on the processing

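The order of the 10 genes and their detection changed little with the processing, except where length was left out. On TMM-normalised CPM, Atf4 minus Xbp1 became -0.10, Ddit3 minus Ern1 -0.93 and Atf6 minus Atf6b 1.46 log2 units, and no other tried setting turned a difference round. The median level of the 10 genes, 4.74 in log2(FPKM + 1), became 5.60 in TPM and 6.24 in TMM-normalised CPM, and its lead over all genes, 3.79, became 1.51 over genes with a count in all 3 libraries. Leaving out each replicate in turn gave 1 to 4 genes of the 10, and 2498 to 3780 of all genes, that differed between libraries beyond counting error. The numbers of genes tested in those runs are not given, so the 2 counts cannot be compared as shares. With no filter on low counts 4 of the 10 were called, Asns being lost, and the share over all genes tested there is not given. The number of genes detected was 8 at an FPKM of at least 5 and 10 at a count of at least 10, against 9. No paired analysis was possible because the series given here holds 1 group. Depth limits Trib3, with 16 or 17 counts per library, and genes with 0 counts. With 3 libraries the exact test cannot pass 0.05.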
